A study of Homo sapiens with 31 samples.

Results

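PDE3A, PLCH1, PLEKHG3, TMCC2, PAQR5, ADAMTS8, PMP22 and NRGN are 8 genes that the study names beside strong CTBP2 peaks. It picked them among genes whose RNA level differed with the 4xPLDLS peptide described below. The genes were therefore chosen by readouts of MUTZ3 cells, and their CTBP2 strength is given as a description only. The comparison with and without the peptide is not independent of that choice either. A peak was assigned to one of them when its transcription start site (TSS) was the nearest to the peak summit among 20163 protein-coding genes of GENCODE on GRCh37. This gave 630 of the 533140 peaks in 13 lists, which merge into 136 of 131683 sites. The 8 genes are among 18289 with at least 1 peak.

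The study mapped EVI1 and CTBP2 by ChIP-seq, in which DNA bound by a protein is recovered with an antibody and sequenced, in 2 human leukemia cell lines with a rearranged EVI1 locus. MUTZ3 is an acute myelomonocytic leukemia line and MOLM1 a line from chronic myeloid leukemia in blast crisis. Peak lists of 13 of the 31 samples were analysed. Unmodified MUTZ3 cells gave 1 EVI1 and 1 CTBP2 list, with disuccinimidyl glutarate (DSG) plus formaldehyde for EVI1 and a single crosslink for CTBP2. MOLM1 cells with a dox-inducible hairpin against EVI1, without dox, gave 1 CTBP2 list, and the study describes these knockdown cells as a clone of MOLM1. MUTZ3 cells with retroviral 4xPLASS, a control peptide of 4 repeats in which the CTBP2-binding motif is mutated, gave 2 CTBP2 lists. MUTZ3 cells with the pCW-4xPLDLS vector, a bulk population with a dox-inducible competitor peptide carrying the intact motif, gave 2 CTBP2 and 2 EVI1 lists without dox (untreated) and 2 of each with dox, all at 72 hours. The labels give DSG for the 4xPLASS, MOLM1 and inducible libraries, while a table of the study gives a single crosslink for 4xPLASS and MOLM1. The labels do not say whether replicates came from separate cultures, so the spread between them may be technical. Weaker binding in every cell and binding in fewer cells cannot be told apart in such bulk chromatin.

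EVI1 is a zinc finger transcription factor that is silent in most mature blood cells and drives an aggressive leukemia when its locus is rearranged. CTBP2 does not bind DNA by itself. It is a corepressor that is brought to chromatin by factors with a PLDLS-like motif, EVI1 among them, and that recruits histone deacetylases and demethylases. A competitor peptide with this motif occupies the same pocket of CTBP2.

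The number of peaks varied from 6688 to 72214 per list, and 14 to 78 of them belonged to the 8 genes, between 0.0914% and 0.209% of a list. CTBP2 lists held 62232 and 56526 peaks without dox and 24588 and 23878 with dox, and EVI1 lists 51389 and 72214 without and 53806 and 47599 with dox. The untreated replicates of the inducible cells differed with base composition. Over 13121 sites called in all 8 inducible lists, the log2 ratio of fold enrichment in replicate 1 to replicate 2 went with the GC content of the site with r = 0.53 for untreated CTBP2 and r = -0.44 for untreated EVI1, against 0.19 and 0.30 with dox. These sites share libraries and are not independent, so r is a description. Of the 136 sites, 25 were called in untreated CTBP2 replicate 1 and not in replicate 2, with a median GC content of 57.7%, and 20 the other way round, with 47.5%. Of those 20, 9 belonged to PDE3A. The part of GC content in the results was not tested.

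The DNA around the strongest CTBP2 peak of unmodified cells is shown for each gene, because most later comparisons turn on these sites. Sequences are from GRCh37, plus strand, with 75 bases on either side of the summit. Capitals mark matches on either strand to GGAA (the ETS core), TGTGGT (RUNX), CAGGTG (an E-box bound by ZEB proteins), TGANTCA (AP-1), GATAAG, GACAAGATA and GAAGATGAG, the last 3 standing for sequences bound by the zinc fingers of EVI1. For PMP22, whose summit lies in an exon annotated as untranslated, only 25 bases are given.
PDE3A, chr12:20061866-20062016: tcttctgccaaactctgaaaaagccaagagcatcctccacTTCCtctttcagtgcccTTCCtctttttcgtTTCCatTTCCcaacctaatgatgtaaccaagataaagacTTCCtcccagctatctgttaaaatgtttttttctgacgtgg
PLCH1, chr3:155273178-155273328: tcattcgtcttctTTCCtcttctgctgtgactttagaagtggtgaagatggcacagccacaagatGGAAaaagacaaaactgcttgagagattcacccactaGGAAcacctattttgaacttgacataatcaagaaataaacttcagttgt
PLEKHG3, chr14:65140657-65140807: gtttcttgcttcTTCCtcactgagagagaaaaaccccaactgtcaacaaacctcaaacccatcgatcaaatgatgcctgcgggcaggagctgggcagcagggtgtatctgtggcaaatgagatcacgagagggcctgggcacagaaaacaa
TMCC2, chr1:205206887-205207037: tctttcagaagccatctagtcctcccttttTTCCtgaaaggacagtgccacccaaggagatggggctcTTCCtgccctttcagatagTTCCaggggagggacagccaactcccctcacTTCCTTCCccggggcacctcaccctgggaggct
PAQR5, chr15:69605918-69606068: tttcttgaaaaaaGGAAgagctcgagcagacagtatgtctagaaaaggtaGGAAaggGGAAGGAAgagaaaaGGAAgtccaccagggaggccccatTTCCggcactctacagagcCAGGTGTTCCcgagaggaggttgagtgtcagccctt
ADAMTS8, chr11:130270929-130271079: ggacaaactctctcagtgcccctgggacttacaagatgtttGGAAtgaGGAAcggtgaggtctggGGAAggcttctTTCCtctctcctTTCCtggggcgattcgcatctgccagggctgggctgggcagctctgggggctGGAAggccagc
PMP22, chr17:15139720-15139744: aagaGGAAgctgtgcagagataatg
NRGN, chr11:124588276-124588426: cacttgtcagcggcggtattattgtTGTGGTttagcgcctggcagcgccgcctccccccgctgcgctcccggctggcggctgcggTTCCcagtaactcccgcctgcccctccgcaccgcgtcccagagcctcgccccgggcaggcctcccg

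GGAA was in all 8 windows, from 1 copy at PLEKHG3 and NRGN to 7 at PAQR5 (4 in the whole PMP22 window), and in 91.7% of the 16812 CTBP2 windows of the same length, so its presence does not set the 8 genes apart. In the TMCC2 and PAQR5 windows 2 copies lie directly beside each other. CAGGTG was in the PAQR5 window alone, next to a GGAA match, and in 13.8% of all windows. TGTGGT was in the NRGN window alone and in 19.5% of all windows. GATAAG, GACAAGATA, GAAGATGAG and TGANTCA were in none of the 8 windows, and in 7.32%, 0.381%, 0.773% and 5.32% of all windows. Over all 34 CTBP2 windows of the 8 genes, GATAAG was in 3 and TGANTCA in 2.

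In unmodified MUTZ3 cells the 8 genes had 34 CTBP2 peaks, of which 28 lay over 1 kb from the TSS, against 78.9% of all CTBP2 peaks of the list. Fold enrichment is the ratio of signal to local background at the summit that the authors' peak caller gave. Of the 8 strongest peaks, 5 were within the top 1% of the 16836 peaks. PDE3A, a phosphodiesterase that breaks down cyclic nucleotides, had a peak of fold enrichment 23.0 (rank 76) 460 kb upstream of its TSS, in an intron of a long noncoding RNA, and 2 peaks in introns, 42.4 kb and 36.7 kb downstream, of 17.4 (rank 233) and 9.48 (rank 1641). PLCH1, a phospholipase C, had an intronic peak of 22.4 (rank 80) 190 kb downstream of its TSS. PLEKHG3 had an intergenic peak of 20.9 (rank 105) 30.1 kb upstream and 2 intronic peaks of 17.9 and 16.9. PAQR5, a membrane receptor for progestins, had a single peak, of 20.3 (rank 121), in an intron 14.8 kb downstream. TMCC2, a transmembrane protein with coiled-coil domains, had an intronic peak of 19.9 (rank 134) 9.91 kb downstream.

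The 3 other genes had weaker peaks. PMP22, a myelin protein of peripheral nerve, had a peak of 14.0 (rank 496) 35.9 kb downstream. ADAMTS8, a secreted metalloprotease, had a peak of 8.19 (rank 2488) that lay past its 3′ end, in an intron of the long noncoding RNA ZBTB44-DT. NRGN, neurogranin, a calmodulin-binding protein best known from neurons, had 2 peaks, of 4.25 (rank 13344) and 3.37 (rank 16150). When peaks were assigned by the nearest TSS, NRGN thus had no strong peak, and its strongest stood at 79.3% of the list counted from the top. The study assigned peaks first through regulatory elements linked to genes and otherwise by the nearest gene, so its peak for NRGN and those listed here need not be the same. The median rank of the 34 peaks was 49.2% of the list, so most peaks of the 8 genes were of ordinary strength.

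Each gene had between 11 and 32 of the 136 sites. PLEKHG3 had 32, PDE3A 22, TMCC2 21, PMP22 14, PLCH1, PAQR5 and ADAMTS8 12 each and NRGN 11. The strongest summit of 130 sites lay over 1 kb from the TSS, and the farthest were 460 kb upstream of PDE3A and 482 kb downstream of PMP22. Of the summits, 62 were in an intron of the gene itself and 42 were intergenic. These counts and that of 130 were not set against all merged sites and are a description only. At PLEKHG3, sites between 49.6 and 60.7 kb downstream lay within SPTB, the gene of an erythrocyte spectrin. EVI1 and CTBP2 lists shared 65 of the 136 sites, against 44.6% of all merged sites. CTBP2 lists alone held 44, against 32.7% of all, and EVI1 lists alone 27, against 22.6% of all. Calls in a single list made up 55 sites, against 46.1% of all merged sites.

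**Figure D1:**
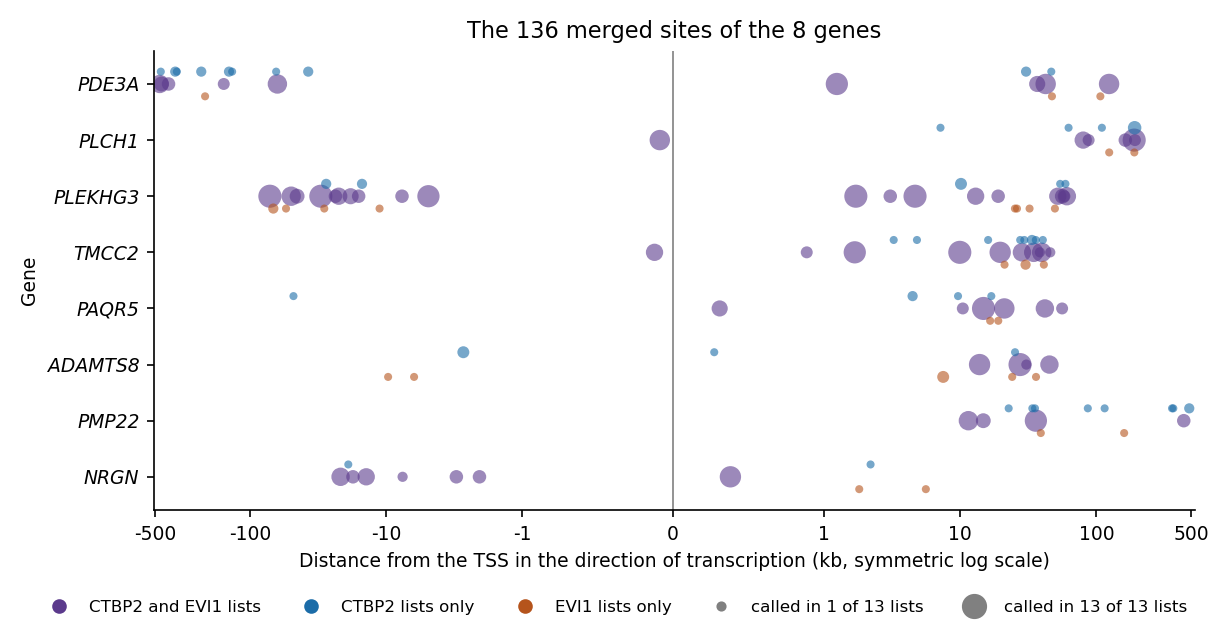
The 136 merged sites of the 8 genes by the distance of the strongest summit from the TSS, in kb on a symmetric log scale, with downstream to the right. Larger points were called in more of the 13 lists, and colour shows whether CTBP2 lists, EVI1 lists or both hold the site (65 in both). Large points lie mostly away from the TSS, such as those of PLEKHG3 at 30.1 kb upstream and 4.65 kb downstream.

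Called in all 13 lists were 8 of the 136 sites, against 2.33% of all merged sites. PLEKHG3 had 4 of them, at 71.3 kb and 30.1 kb upstream and 1.71 kb and 4.65 kb downstream. The others were the strong sites of PLCH1, TMCC2, PAQR5 and ADAMTS8. The genes were chosen for strong CTBP2 peaks, so nothing is read from this share. PDE3A, PMP22 and NRGN had none. The strong PMP22 site was missing from 1 list, CTBP2 with dox replicate 2, and the NRGN site at its TSS from 2, EVI1 in unmodified cells and CTBP2 with 4xPLASS replicate 1. Sites whose strongest summit lay within 1 kb of the TSS were found at 5 of the 8 genes. The one at NRGN was in 11 lists, that at PLCH1 in 10, those at TMCC2 in 7 and 3, that at PAQR5 in 6 and that at ADAMTS8 in 1. PDE3A and PLEKHG3 also had a wide site that spans the TSS, in 12 and 13 lists. Its strongest summit lay 1.24 kb and 1.71 kb downstream, so it was not counted above. In unmodified cells these sites held CTBP2 summits 77 bp (PDE3A) and 281 bp (PLEKHG3) downstream of the TSS.

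The first comparison asks whether CTBP2 and EVI1 were found at the same places in unmodified cells. Of the 34 CTBP2 peaks, 18 overlapped an EVI1 peak by at least 1 bp, which is 52.9% (95% Wilson interval 36.7 to 68.5, counting error only), against 54.5% of all CTBP2 peaks. With 1 library per protein there is no replicate error and no test. Of the 12 peaks in the strongest 5th of the list, 11 overlapped EVI1, against 79.4% of all peaks in that 5th. The exception was the PDE3A peak 36.7 kb downstream. In the 4th and 5th strength groups, the weakest, 2 of 7 and 1 of 7 did, against 42.2% and 44.8% of all peaks in these groups. Because the genes were chosen for strong CTBP2 peaks, some of the 12 stand near the top of their 5th. Nothing is therefore read from its difference to all peaks. By gene, EVI1 was found at 7 of 8 CTBP2 peaks of PLEKHG3, 4 of 5 of TMCC2, 2 of 8 of PDE3A and 0 of 2 of NRGN. In the other direction, 17 of the 25 EVI1 peaks of the 8 genes overlapped a CTBP2 peak, and 43.0% of all EVI1 peaks did.

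NRGN shows how far this depends on the library. It had no EVI1 peak in unmodified cells, but 7 and 6 in the untreated and 7 and 6 in the dox libraries of the inducible cells. Its 2 sites with CTBP2 in unmodified cells had an EVI1 peak in all 4 of those lists, with fold enrichment of 8.44 and 8.27 without dox at the site 21.6 kb upstream. With the EVI1 sites that the pair of untreated inducible lists share, 79.4% of the 34 CTBP2 peaks overlapped EVI1. Against each untreated EVI1 list alone, 85.3% and 79.4% of the 34 did, and 83.6% and 77.2% of all CTBP2 peaks. The higher share was thus not particular to the 8 genes. These EVI1 lists hold 51389 and 72214 peaks, against 21505 in unmodified cells.

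PDE3A showed the opposite. At its site 460 kb upstream, EVI1 had a fold enrichment of 12.9 in unmodified cells and no peak in any of the 4 inducible EVI1 lists. CTBP2 had no peak there in untreated replicate 1, 9.35 in untreated replicate 2, and 6.77 and 10.5 with dox. The site 42.4 kb downstream was likewise absent from untreated CTBP2 replicate 1, with 17.4 in replicate 2 and 5.86 and 7.22 with dox. The GC content of these sites was 39.8% and 42.3%. In untreated replicate 1 the strongest CTBP2 peak of PDE3A lay instead in a GC-rich stretch (70.1%) 1.22 kb downstream of the TSS, in a coding exon, with 21.3. So the 2 untreated libraries give different pictures of this gene, and GC content moves with the difference.

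In MOLM1 cells, 25 of the 34 CTBP2 peaks of unmodified MUTZ3 were found again, or 73.5% (56.9 to 85.4), against 70.2% of all CTBP2 peaks. The MOLM1 list is 64569 peaks long, and there was 1 library per cell line, so no test was made. All 12 peaks in the strongest 5th were found, where the share over all peaks of that 5th was 82.4%. Given the choice of genes by CTBP2 strength, nothing is read from this difference. The PLCH1 site was the strongest of the 8 genes in MOLM1, with a fold enrichment of 37.7 (rank 162), and the PLEKHG3 site at 30.1 kb had 30.6 (rank 497). PLCH1, TMCC2, PAQR5 and NRGN peaks were all found, while 5 of 8 PDE3A peaks and 2 of 4 ADAMTS8 peaks were not. Of these, 4 of the PDE3A peaks lay within 1134 bp of its TSS, and MOLM1 had a peak of 9.85 beside them within the same merged site.

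NRGN had a stronger site in MOLM1 than anywhere in MUTZ3. A peak 13.9 kb upstream of its TSS had a fold enrichment of 27.1 (rank 923) in MOLM1, 8.79 and 4.84 at the same merged site in untreated inducible cells and no peak in unmodified or 4xPLASS cells. The MOLM1 list also held 19 sites of the 8 genes that no CTBP2 list of MUTZ3 held, out of 136, against 17.3% of all merged sites. PMP22 had 6 of them, and the highest was a PLCH1 site 62.5 kb downstream, with 17.4.

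In the study the retroviral 4xPLASS peptide is the control for the retroviral competitor, which has no list here. It is not a control for the dox comparison below. Of the 34 peaks, 14 were found in replicate 1 (41.2%, 26.4 to 57.8) and 27 in replicate 2 (79.4%, 63.2 to 89.7), against 31.3% and 79.2% of all CTBP2 peaks. All 14 were in both replicates, and 29.9% of all peaks were. The replicates have 6688 and 31310 peaks, so the lower share went with the shorter list. Of the 12 peaks in the strongest 5th, 11 were in replicate 1 and 12 in replicate 2, against 72.5% and 97.9% of all peaks in that 5th. Here, too, the choice of genes by CTBP2 strength bears on the difference, and nothing is read from it. The PLCH1 site ranked highest in replicate 1 (13.4, rank 115) and the PLEKHG3 site at 30.1 kb in replicate 2 (26.2, rank 120). NRGN had no peak in replicate 1 and 1 in replicate 2.

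The comparison of dox and untreated cells asks how binding differed once the competitor peptide was induced. No list here is from dox-treated cells without the competitor, so dox itself and the peptide cannot be told apart. With dox, 5 of the 8 genes had fewer CTBP2 peaks in both libraries than in either untreated library, against 50.3% of 16473 genes with a CTBP2 peak. PLEKHG3 had 21 and 16 CTBP2 peaks without dox and 8 and 8 with dox. TMCC2 had 15 and 9 without and 1 and 5 with dox. NRGN had 7 and 5 without and 1 and 1 with dox, the site at its TSS. ADAMTS8 had 7 and 5, then 3 and 2, and PMP22 had 3 and 5, then 2 and 0. In these 5 genes the groups did not overlap. In the other 3 they did: PDE3A had 3 and 12 without and 6 and 11 with dox, PLCH1 4 and 6 against 2 and 5, and PAQR5 7 and 5 against 5 and 3.

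**Figure D2:**
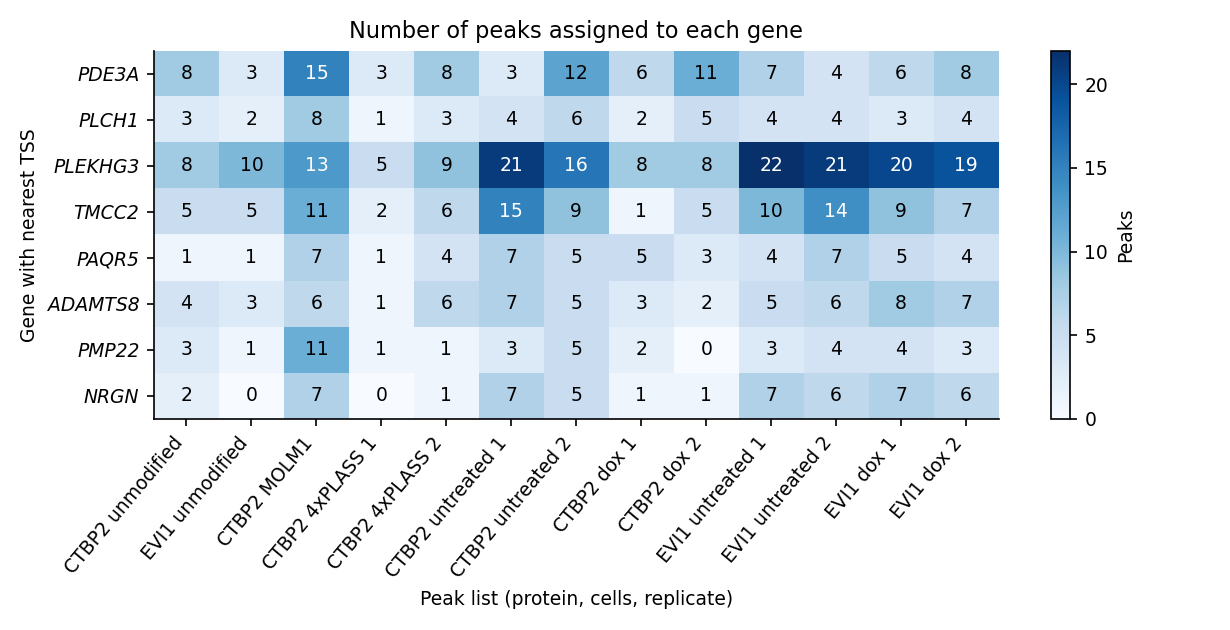
Number of peaks assigned to each of the 8 genes (rows) in each of the 13 lists (columns), printed in each cell and shaded from 0 to 22. PLEKHG3 and TMCC2 go from 21, 16 and 15, 9 CTBP2 peaks in untreated inducible cells to 8, 8 and 1, 5 with dox, and the 4 inducible EVI1 columns of PLEKHG3 stay between 19 and 22.

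With 2 libraries in each group, 0.33 is the smallest p of an exact two-sided permutation test, and the 5 genes reached it. For PLCH1 and PAQR5 the exact p was 0.667 and for PDE3A 1. With the 4 CTBP2 lists cut to the 23878 peaks of the shortest, 0 of the 8 genes had fewer peaks in both dox libraries, against 8.78% of genes, so the counts cannot be told apart from the length of the lists.

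EVI1 peak numbers of the same genes were closer. PLEKHG3 had 22 and 21 without and 20 and 19 with dox, and TMCC2 10 and 14 against 9 and 7. These 2 genes had fewer EVI1 peaks in both dox libraries, as did 11.2% of 17189 genes. ADAMTS8 had more, 8 and 7 with dox against 5 and 6 without. The share of all genes with more was not computed, so nothing is read from this. NRGN had 7 and 6 in either condition, PMP22 3 and 4 against 4 and 3, PDE3A 7 and 4 against 6 and 8, PLCH1 4 and 4 against 3 and 4, and PAQR5 4 and 7 against 5 and 4. The exact p was 0.33 for PLEKHG3, TMCC2 and ADAMTS8 and between 0.667 and 1 for the rest. Whether EVI1 differed from CTBP2 was not tested.

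Followed site by site, the 8 genes had 40 CTBP2 sites called in both untreated libraries. With dox, 18 (45.0%) had a peak in replicate 1 and 23 (57.5%) in replicate 2, a mean of 51.2% ± 8.84 (SD, n = 2), against 48.7% ± 3.03 of all 37227 such sites. Both dox libraries kept 16 of the 40, and 38.4% of all sites were kept by both. In neither dox library was a peak found at 15, against 41.0% of all sites. For EVI1, 40 sites were shared by the untreated libraries, and 34 of 40 had a peak in each dox library (85.0%, against 84.5% ± 5.20 over all sites). Both dox libraries kept 32 of them, where the share over all sites was 78.1%, and 4 were in neither, against 9.01%. So the 8 genes had shares close to those over all sites for both proteins. On lists of equal length, 82.1% of 14 CTBP2 sites were kept, against 77.2% of all sites. The cut mostly removes untreated peaks with the weakest p-values of the peak caller. A higher kept share is thus built in, and these values cannot be set against those of the full lists.

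**Figure D3:**
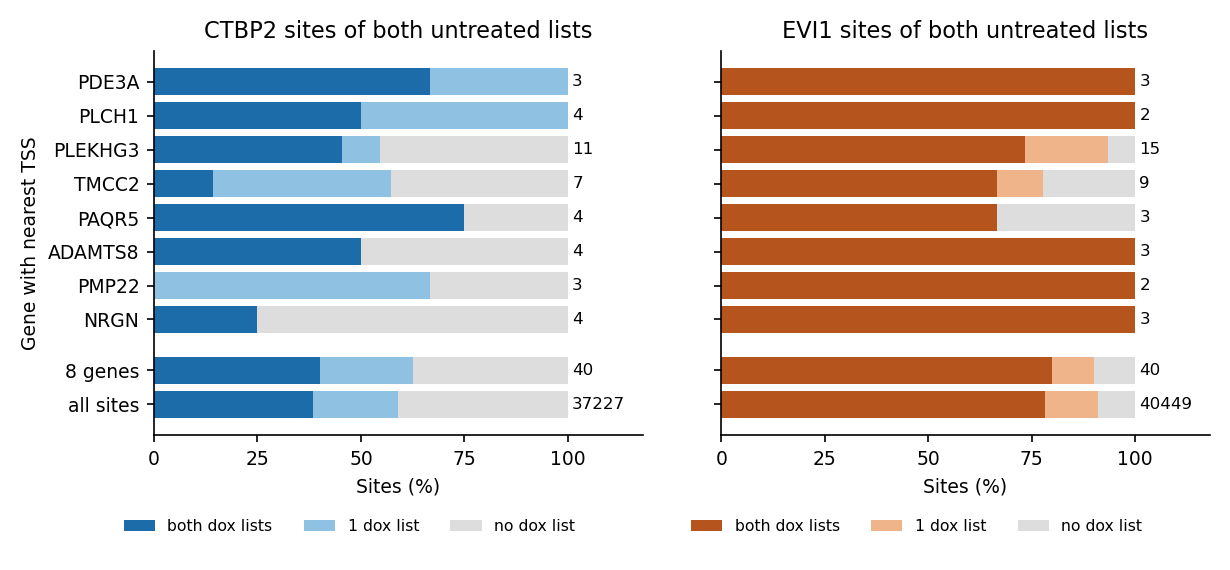
Share of sites called in both untreated lists that were called in both, 1 or no dox list, by gene, for all 8 genes and for all sites, with CTBP2 on the left and EVI1 on the right. The number of sites is printed at each bar. NRGN kept 1 of 4 CTBP2 sites in both dox lists and all 3 EVI1 sites.

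Among CTBP2 sites of the 8 genes in the strongest 5th by fold enrichment in untreated replicate 1, 7 of 7 were kept in both dox libraries, and of the 10 in the weakest 5th 2 were. Over all sites the shares were 81.4% and 14.7%. At the sites that kept a peak, its fold enrichment was mostly lower. The site of PLEKHG3 30.1 kb upstream had CTBP2 fold enrichments of 26.2 and 28.5 without dox and 6.62 and 7.11 with dox, a log2 difference of -2.00. Among all sites called in the 4 CTBP2 lists, 2.52% had a more negative difference. The site of PAQR5 14.8 kb downstream had 36.8 and 29.8 without and 13.3 and 11.1 with dox. The TMCC2 site 9.91 kb downstream had 21.8 and 21.3 without and 6.57 and 7.72 with dox. For these PAQR5 and TMCC2 sites, 15.5% and 10.2% of all such sites had a more negative difference. At all these sites the untreated and dox values did not overlap. They belong to the strongest 5th, where 6061 sites were called in all 4 CTBP2 lists. Of those, 92.5% were lower in both dox libraries, with a median log2 difference of -1.24, so lower values were usual there.

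PLEKHG3 kept more at its other strong sites, with CTBP2 values at 4.65 kb of 38.3 and 26.2 without and 14.8 and 14.9 with dox, and at 1.63 kb of 22.8 and 18.9 without and 10.8 and 13.4 with dox. The PDE3A site at its first exon had 21.3 and 10.4 against 7.02 and 5.76, and the NRGN site at its TSS 17.0 and 7.38 against 4.01 and 5.86. In these 2 genes, too, the values did not overlap. Among all sites called in the 4 CTBP2 lists, 26.4% and 27.3% had a more negative difference than these PDE3A and NRGN sites. The PLCH1 site did overlap, with 6.41 and 21.1 without and 8.21 and 10.3 with dox. Its untreated replicates differ by more than any untreated value from a dox value of the same site, and its GC content of 46.3% lies below the median of either untreated CTBP2 list, 57.7% and 53.7%. In untreated replicate 1 the strongest PLCH1 site was another, 163 kb downstream, with 7.86 and 6.85 without dox, no peak in dox replicate 1 and 5.44 in replicate 2. ADAMTS8 had 8.32 and 8.91 against 7.22 and 9.83 at its strongest unmodified site and so showed no difference beyond the spread.

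**Figure D4:**
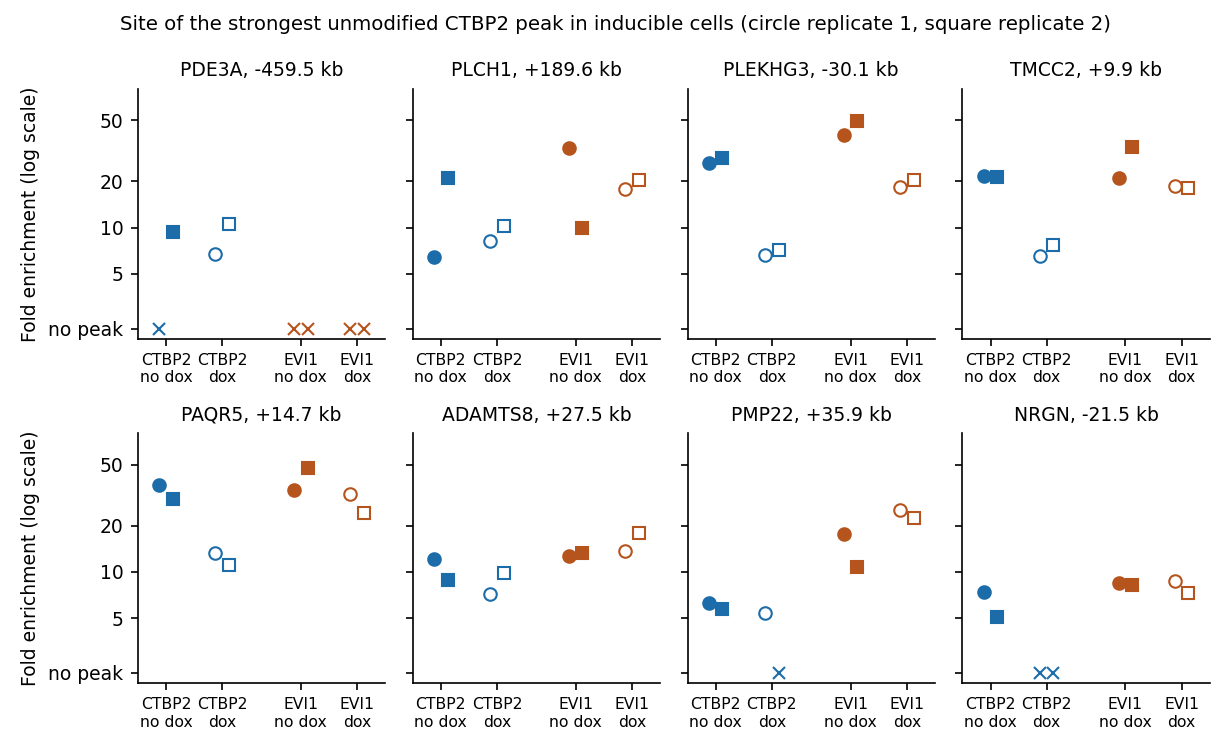
Fold enrichment, on a log axis, at the site of each gene's strongest CTBP2 peak of unmodified cells, in the 4 CTBP2 (blue) and 4 EVI1 (orange) libraries of inducible cells, with filled points without dox, open points with dox and crosses where no peak was called. Each value is the highest within the site merged over all 13 lists, which at ADAMTS8 also spans the peak 26.6 kb downstream (12.1). At PLEKHG3 CTBP2 goes from 26.2 and 28.5 to 6.62 and 7.11, while at PMP22 EVI1 is 17.7 and 10.7 without and 25.3 and 22.3 with dox.

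Of the 16 CTBP2 sites with a peak in all 4 lists, 10 had lower fold enrichment in both dox than in both untreated libraries. In the other direction, 0 were higher. Over all such sites, 72.5% were lower and 1.96% higher. The median log2 difference of the 16 sites was -0.76, and -0.86 over all sites. For EVI1, 9 of 32 sites were lower, against 35.3% over all sites, and 8 of 32 were higher, against 13.4%. The median was -0.05, and -0.23 over all sites. Fold enrichment is scaled within each library by the authors' peak caller, so a difference between libraries also carries their depth and background, which the lists do not give.

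**Figure D5:**
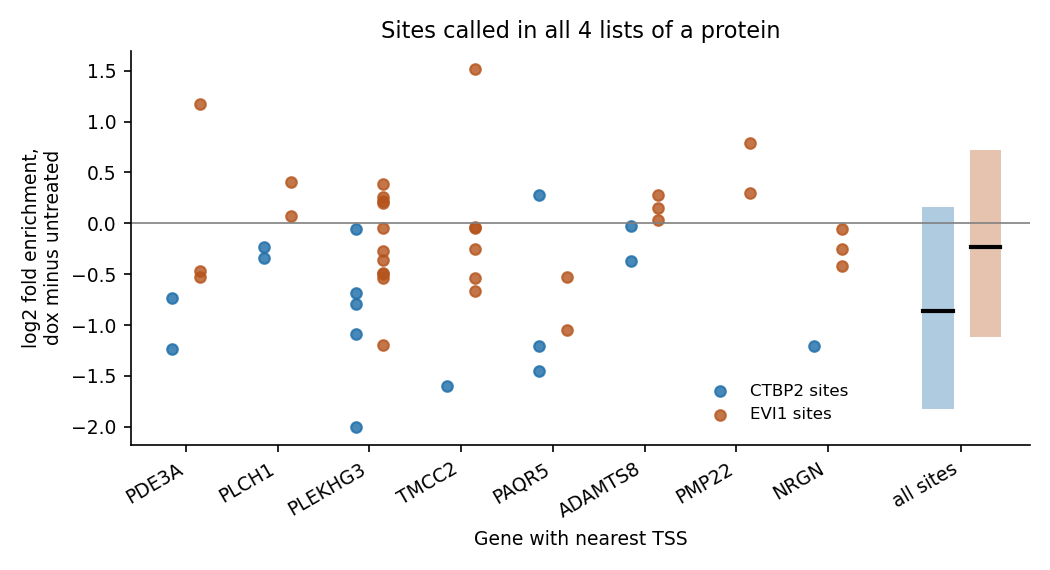
Difference in mean log2 fold enrichment, dox minus untreated, at sites of the 8 genes called in all 4 lists of CTBP2 (blue, 16 sites) or EVI1 (orange, 32 sites), 1 point per site. Bars at the right span the 5th to 95th percentile over all such sites, with the median as a line at -0.86 for CTBP2 and -0.23 for EVI1. The lowest CTBP2 point is PLEKHG3 at -2.00 and the highest EVI1 point TMCC2 at 1.52.

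Of the 15 CTBP2 sites in neither dox library, 10 had an EVI1 peak in both dox libraries, against 52.3% of all such sites. NRGN had 3 of the 15. At 14.3 kb upstream, CTBP2 had 8.79 and 4.84 without dox and no peak with dox, while EVI1 had 5.65 and 6.42 without and 5.86 and 3.44 with dox. At 21.5 kb upstream, CTBP2 had 7.44 and 5.09 and no peak with dox, and EVI1 8.44 and 8.27, then 8.76 and 7.35. The strongest CTBP2 site of all 15 was at ADAMTS8, 26.6 kb downstream, with 12.1 and 7.67 without dox, and EVI1 was called there in all 4 lists. PLEKHG3 had 5 of the 15, of which the strongest, 60.7 kb downstream within SPTB, had 10.7 and 6.43, and TMCC2 had 3, of which the strongest, at its TSS, had 7.98 and 5.35. PAQR5 had 1, 4.46 kb downstream, with 6.26 and 3.73, where no inducible EVI1 list had a peak. PMP22 had 1, 14.8 kb downstream, with 5.11 and 3.82, and PDE3A and PLCH1 had none.

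EVI1 at single sites differed in both directions. At the PLEKHG3 site 30.1 kb upstream EVI1 had 40.1 and 49.3 without and 18.4 and 20.5 with dox, lower in both, where CTBP2 was lower too. At the PLEKHG3 site 1.72 kb downstream it had 36.1 and 43.2 without and 54.0 and 49.9 with dox, higher in both, although CTBP2 was lower there. The PAQR5 site had 34.3 and 47.5 without and 32.2 and 24.2 with dox. PMP22 had 17.7 and 10.7 without and 25.3 and 22.3 with dox at 35.9 kb, where CTBP2 had 6.25 and 5.76 without dox, 5.44 in dox replicate 1 and no peak in replicate 2. The TMCC2 site 39.6 kb downstream had EVI1 at 4.43 and 5.29 without and 14.3 and 13.4 with dox, a log2 difference of 1.52. This was above 99.8% of all sites called in the 4 EVI1 lists. The CTBP2 peaks of this TMCC2 site, of 3.04 and 4.25, were not found with dox. The PDE3A site 62.8 kb upstream had EVI1 at 11.2 and 5.77 without and 17.6 and 18.6 with dox. Among all sites called in the 4 EVI1 lists, 3.68% had a more negative difference than the PLEKHG3 site 30.1 kb upstream. For the PAQR5 site it was 28.7%, for PLEKHG3 at 1.72 kb 86.6%, for PMP22 95.9% and for this PDE3A site 99.1%. In the strongest 5th of these sites, 49.8% were lower in both dox libraries and 8.24% higher.

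Among the 136 sites, 0 had CTBP2 in both dox lists and in neither untreated list, against 0.114% of all merged sites, and 4 had EVI1 in this pattern, against 1.21%, 1 each at PDE3A, PLCH1, PLEKHG3 and PAQR5. The PAQR5 one, 41.8 kb downstream, had EVI1 at 4.84 and 4.96 with dox. It is also the only CTBP2 site of the 8 genes with all 4 peaks whose mean log2 value was higher with dox, at 4.11 and 7.64 without and 7.61 and 6.09 with dox, values that overlap.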

How the data were processed

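Per the labels and the study's methods, the authors used Bowtie (1.1.1) to align reads to hg19. Peaks were found with MACS2 (2.1.2), library by library, with a matched input. For the inducible cells the labels name a single input without dox and a single input with dox, rather than an input per library. The deposited lists give a display score, which was not used, a fold enrichment ratio, and −log10 p and −log10 q values of each peak. They hold no read counts, so depth is unknown and the study's comparison of reads in peaks could not be made here. Peaks on chromosomes 1 to 22, X and Y lay within the chromosome lengths of GRCh37.

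Each summit was assigned to the nearest 5′ end of a protein-coding gene (GENCODE 44 on GRCh37). Overlap meant at least 1 bp, and a site was a merged interval. Dox sites were looked up from sites called in both untreated libraries. Strength groups are 5 equal parts by fold enrichment. For unmodified cells the CTBP2 peak list was divided. For the dox comparison the sites called in both untreated libraries were divided, by their value in replicate 1. Dox and untreated peak numbers of a gene were set against each other in an exact permutation test (two-sided). Intervals are Wilson intervals (95%). GC content was taken over 100 bases on either side of a summit.

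The 8 genes, motifs and tests were chosen with earlier results of these data known. All 8 genes are named. Sites are named if they hold a gene's strongest CTBP2 peak in unmodified cells or in untreated replicate 1, or its strongest lost site, and other sites named were chosen after their values were seen. Alternatives were other overlaps, filters, gene assignments, site definitions, list lengths, libraries left out and a replicate block. Overlap and assignment were tested on simulated data and against bedtools (2.31.1). Scripts ran in Python (3.11.15), with pysam (0.24.0), scipy (1.17.1), pandas (2.3.3), matplotlib (3.10.9) and numpy (2.4.6).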

Additional observations from a re-analysis of the deposited data

How the results depend on the processing

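The share of CTBP2 sites kept with dox (51.2%) was 29.9% for sites in either untreated library and 82.1% on lists cut to the smallest, and ran from 32.8% to 57.5% without 1 library. For EVI1 (85.0%) the values were 56.7%, 94.1% and 59.8% to 85.0%. Without 1 untreated library, all peaks of the other were looked up, which is a larger set of sites. Without 1 dox library the set stayed the same, with 45.0% and 57.5% for CTBP2 and 85.0% for EVI1. With the replicate block the shares were 38.7% and 66.7%, each over all peaks of an untreated library, and numbers crossed, an alternative added after seeing the data, 34.6% and 68.2%. Between untreated and dox, the replicate 1 to 2 ratios of same-numbered libraries correlated with r = 0.20 for CTBP2 and -0.34 for EVI1, and with 2 numbers and no label of a shared culture they were not taken as pairs. The overlap of CTBP2 with EVI1 (52.9%) was 79.4% with EVI1 sites of the inducible cells, whose lists are longer.

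The number of genes with fewer CTBP2 peaks with dox was 5 to 7 under the other alternatives, the replicate block (7) included, and 0 on equal lists. Without 1 library it was 6 to 7. For EVI1 it was 2 with the block, 0 with a −log10 q or a fold enrichment of at least 5 and on equal lists, and 2 to 3 without 1 library. Mean differences in peaks per gene, dox minus untreated, turned in direction as follows. For CTBP2 of PDE3A it was -1.0 at −log10 q of at least 5, -0.50 at fold enrichment of at least 5, -3.50 without untreated replicate 1 and -1.5 without dox replicate 2, in a range of -3.50 to 5.50 without 1 library. On equal lists CTBP2 was at 2.00 for PLCH1, 0.50 for PLEKHG3, 1.00 for PAQR5 and 0.50 for PMP22, and EVI1 at 3.00 for PLEKHG3 and 1.00 for PAQR5. For EVI1 it was 1.5 for PLEKHG3 and 1.00 for PAQR5 at −log10 q of at least 5, 1.00 for PLCH1 at fold enrichment of at least 5, and 0.50 for PAQR5 without untreated replicate 2, in a range from -2.50. Equal lists hold fewer untreated peaks by construction, and the cause of the other shifts was not tested. All other shares for EVI1, MOLM1 and 4xPLASS moved by less than their interval or spread. Depth could not be assessed.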
